A study of Mus musculus with 12 samples.

Results

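The 14-3-3 genes were described in RNA of cells sorted from the midbrain of C57BL/6 mice. The members were chosen by symbol: Ywhab, Ywhae, Ywhag, Ywhah, Ywhaq and Ywhaz, 6 of the 24346 genes measured. Ywhah had been noted for its lower level at 12 weeks in these same libraries, so all differences between the times are given as descriptions, without a test. The 12 libraries formed 4 groups of 3: synuclein at 12 weeks, saline at 12 weeks, synuclein at 7 weeks and saline at 7 weeks after injection. Synuclein mice had received preformed fibrils of G51D α-synuclein (20 µg at 5 µg/µL), a form linked to familial Parkinson's disease, into the substantia nigra on both sides, and saline mice had received saline by the same route. In every group the cells were sorted for hKO1, an orange fluorescent protein that the labels tie to dopaminergic neurons, and the labels do not state what drives it or the age of the mice. The design asks how expression in dopaminergic neurons differs at these times after the fibrils.

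14-3-3 proteins are small acidic adaptors that work as dimers. They bind partner proteins at phosphorylated serines or threonines and so hold enzymes active or inactive, keep factors out of the nucleus or shield docking sites. They are abundant in brain, and the gene symbols recall their discovery as activators of tyrosine and tryptophan hydroxylase, the enzymes that start dopamine and serotonin synthesis. 14-3-3 proteins have been found in Lewy bodies, the α-synuclein deposits of human Parkinson's disease. Mammals have 7 family genes, and the remaining one, Sfn, encodes the sigma form of epithelial cells.

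The sorted RNA was not that of neurons alone. None of the 14 neuronal markers was at 0 in every library. Their sum (676 to 3367 CPM, counts scaled to library size by TMM) lay below the sums of 10 oligodendrocyte markers (16080 to 43740 CPM) and of 8 endothelial markers (6652 to 15920 CPM). Libraries held 2506730 to 5533322 assigned fragments, of which each member had 199 or more in every library. Replicates 1 and 2 of synuclein at 12 weeks stand apart from the rest. Replicate 2 had 17409 genes with a fragment, against 19960 to 21135 in the others. Replicate 1 had an ependymal marker sum of 496 CPM, against at most 255 CPM elsewhere. Member folds that rest on these libraries are also given without them. Replicate 3 of synuclein at 7 weeks had a pericyte and smooth muscle sum of 978 CPM, against at most 290.3 CPM elsewhere, and a microglial sum of 607 CPM, against at most 241 CPM elsewhere. In such mixed material, fewer cells of a type and less RNA per cell cannot be told apart.

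Each member has its own locus, given as in the deposited files, with ends equal to those of RefSeq GRCm38.p6 within 1 base for all members but Ywhaz. Ywhah lies on chromosome 5 at 33018816 to 33027966 and Ywhag on the same chromosome at 135908379 to 135934641. Ywhab lies on chromosome 2 at 163995197 to 164018587, Ywhae on chromosome 11 at 75732887 to 75765841, Ywhaq on chromosome 12 at 21390329 to 21417436 and Ywhaz on chromosome 15 at 36770262 to 36796929. The coding sequences, 738 to 768 bases long in the GENCODE M21 transcripts, are related but distinct. Ywhag and Ywhah were the closest pair, with 78.6% identical bases and a longest shared run of 30 bases. Ywhab and Ywhaz shared 74.2% and Ywhae and Ywhag, the most distant pair of members, 61.1%. The Ywhaq pseudogenes were not analysed here.

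The sequence just before the gene start is shown for 3 members: Ywhah, on which the values below turn, Ywhag, its closest relative in coding sequence, and Ywhaq, the most abundant. The RefSeq table for GRCm38.p6 held 4 of the 6 members (not Ywhab and Ywhaz). The 250 bases before the start are printed on the gene's strand, from chr5:33018566-33018815 (plus strand) for Ywhah, chr5:135934642-135934891 (minus strand) for Ywhag and chr12:21417437-21417686 (minus strand) for Ywhaq. Capitals mark the letters TGACGTCA (the full cyclic AMP response element) or TGACG (its first part), and CCAAT, on either strand.
Ywhah: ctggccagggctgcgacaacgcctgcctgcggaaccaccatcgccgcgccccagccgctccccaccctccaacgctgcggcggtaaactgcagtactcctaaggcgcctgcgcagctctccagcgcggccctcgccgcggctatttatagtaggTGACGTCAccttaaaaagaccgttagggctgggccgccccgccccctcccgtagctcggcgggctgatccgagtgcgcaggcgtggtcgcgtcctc
Ywhag: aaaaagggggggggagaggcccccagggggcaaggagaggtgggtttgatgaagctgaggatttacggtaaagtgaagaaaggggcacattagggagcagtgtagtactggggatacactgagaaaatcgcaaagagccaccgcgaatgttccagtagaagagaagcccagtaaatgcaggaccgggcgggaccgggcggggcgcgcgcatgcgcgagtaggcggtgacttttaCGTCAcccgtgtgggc
Ywhaq: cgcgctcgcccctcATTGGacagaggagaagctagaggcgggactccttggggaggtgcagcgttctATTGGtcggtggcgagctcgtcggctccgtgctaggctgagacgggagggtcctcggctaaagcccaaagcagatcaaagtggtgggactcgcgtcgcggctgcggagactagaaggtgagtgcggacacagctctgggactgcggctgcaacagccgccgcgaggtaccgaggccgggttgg
The Ywhah window holds 1 full element, TGACGTCA, 96 bases before the start, which 1.55% of the 32851 windows of the same length in the table hold. Ywhag holds the first part, read as CGTCA on this strand, 16 bases before the start. TGACG, which lies within the full element, occurs in 17.8% of windows. Ywhaq holds CCAAT on the other strand 236 and 183 bases before the start, and 33.8% of windows hold it. The GC box letters GGGCGG (32.7% of windows) occur at 2 places each in Ywhah, Ywhag and Ywhae, and TATAAA (12.4% of windows) occurs once, in Ywhah, 107 bases before the start on the other strand. The Ywhae window, with 73.2% G and C, holds neither TGACG nor CCAAT. GC content was 68.8% in Ywhah, 58.4% in Ywhag and 65.2% in Ywhaq, against a median of 52.4%, and Ywhah and Ywhae had 29 CpG each against a median of 6. These matches are a description of the letters, do not show binding and were not set against the folds.

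Ywhaq was the most abundant 14-3-3 transcript and Ywhag the least abundant member in all 12 libraries. Levels of different genes are compared in FPKM, fragments that the authors scaled to transcript length and library size. Ywhaq (the theta form, studied for reducing α-synuclein toxicity in cell models) averaged 653 FPKM and ranked 122nd of 24346 genes by mean FPKM. Ywhah (eta, expressed in neurons) averaged 309 FPKM, with rank 315. The middle of the order was close: Ywhab (beta, a regulator of RAF kinases) averaged 198 FPKM, Ywhae (epsilon, a partner of the dynein regulator Ndel1) 182 FPKM and Ywhaz (zeta, a broadly expressed adaptor) 164 FPKM. Ywhag (gamma, mutated in a human childhood epilepsy) averaged 35.0 FPKM. Sfn averaged 2.15 FPKM, with 0.809 to 7.26 FPKM in single libraries, and the highest of these was replicate 2 of synuclein at 12 weeks.

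By group mean Ywhah was second and Ywhag last of the members in all 4 groups. By library Ywhah was second in 10 of 12 libraries and stood behind Ywhab or Ywhae in the others. In FPKM, the gap between Ywhah and the next member was clear of the spread in synuclein at 12 weeks (mean 266 FPKM, against 195 FPKM for Ywhae) and in saline at 7 weeks (421 FPKM, against 227 FPKM for Ywhab). The ranges overlapped in saline at 12 weeks, where Ywhah averaged 177 FPKM and Ywhae 169 FPKM, and in synuclein at 7 weeks. Ywhab, Ywhae and Ywhaz changed places from library to library, and neighbours among them did not differ beyond their spread in any group, except Ywhab over Ywhaz in saline at 12 weeks (167 FPKM, against 131 FPKM).

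Ywhah had the lowest fold with time of the 6 members. It had 382, 437 and 441 CPM in synuclein libraries at 12 weeks and 303, 272 and 284 CPM in saline libraries at 12 weeks. At 7 weeks it had 801, 594 and 415 CPM in synuclein libraries and 628, 678 and 739.8 CPM in saline libraries. All 3 saline libraries at 12 weeks lay below every other library, and only replicate 3 of synuclein at 7 weeks fell within the range of the 12-week libraries. The means were 420.2 ± 33.2 CPM in synuclein at 12 weeks, 286 ± 15.7 CPM in saline at 12 weeks, 603 ± 193 CPM in synuclein at 7 weeks and 682 ± 56.0 CPM in saline at 7 weeks (SD, n = 3 each). The fitted log2 fold of 12 against 7 weeks over both treatments was −0.89 ± 0.17 (SE). Of all 17380 genes tested, 949 had a lower fold, and among the 2158 genes with a mean above 100 CPM the number was 43.

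The fitted Ywhah fold with time was larger in size in saline than in synuclein, but this difference was not called (adjusted p = 0.952, edgeR). In saline the Ywhah log2 fold of 12 against 7 weeks was −1.25 ± 0.24, with the groups apart, and in synuclein it was −0.52 ± 0.23, with overlap. Groups lay apart with 12 weeks lower for 7.83% of all genes in saline and 7.13% in synuclein, and nothing is read from that count since the choice of Ywhah used this contrast. Single libraries moved the synuclein fold in both directions. It was −0.24 without replicate 1 of synuclein at 7 weeks, the highest Ywhah library. It was −0.69 without replicate 3 of synuclein at 7 weeks, the lowest Ywhah library at that time. Without both libraries that stand apart it was −0.45.

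**Figure D1:**
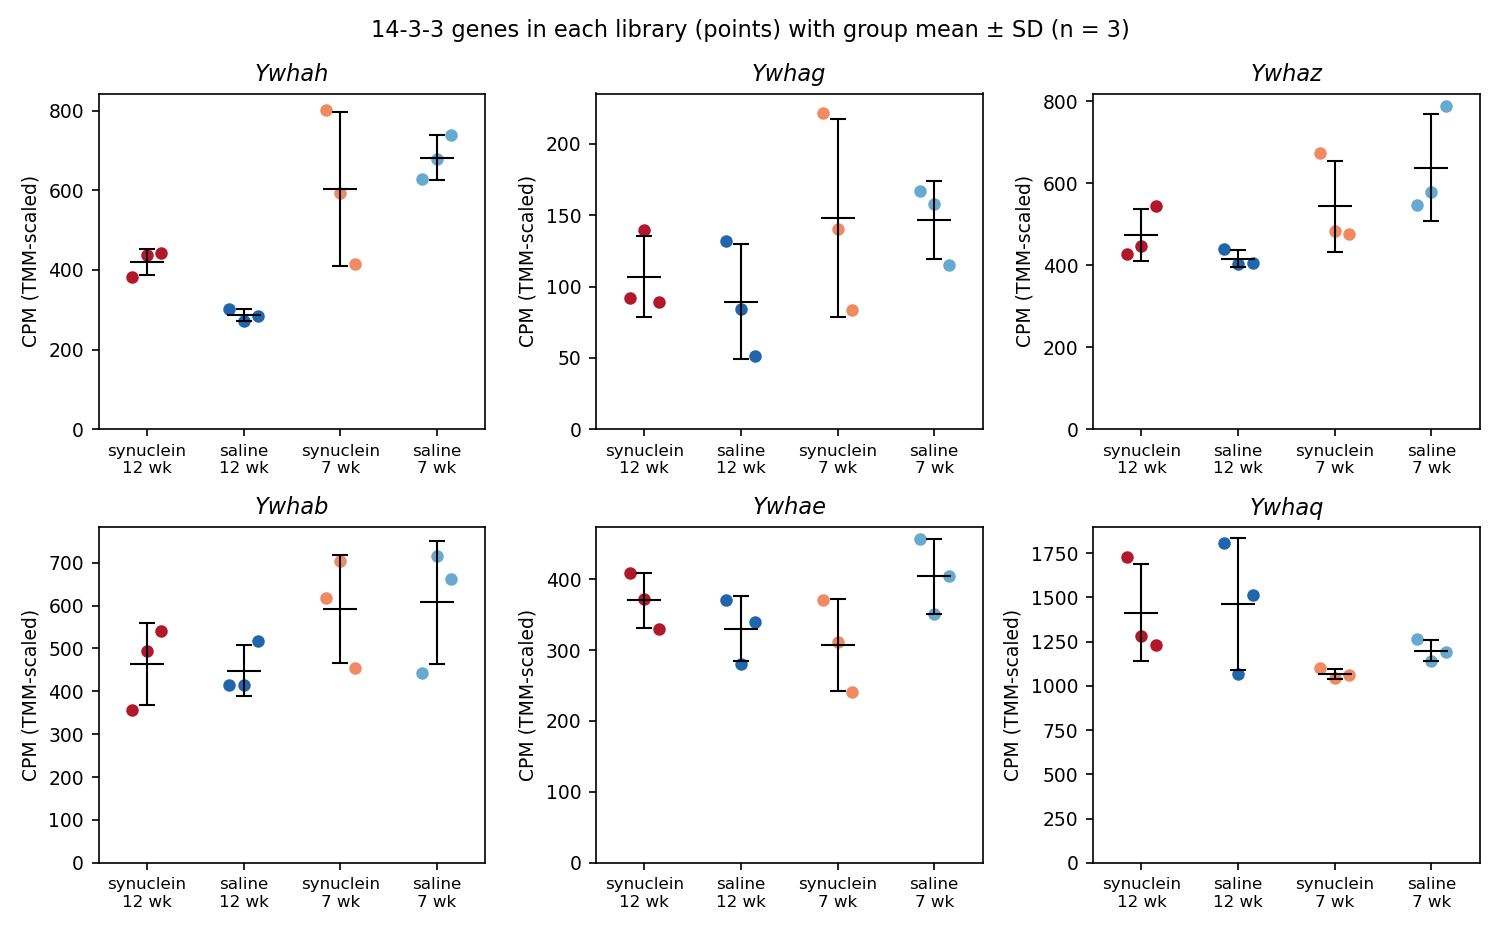
TMM-scaled CPM (vertical axis, linear from 0, a scale for each gene) of the 6 members in each library (points), with group mean and SD as lines and bars (n = 3). Ywhah is lowest in saline at 12 weeks, where its 3 libraries lie between 272 and 303 CPM, and Ywhaq reaches 1806 CPM in 1 of those libraries.

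Ywhag, Ywhaz and Ywhab were also lower at 12 weeks on average, with smaller folds. Ywhag had 92.2, 139.9 and 89.0 CPM in synuclein at 12 weeks and 132, 84.3 and 51.7 CPM in saline at 12 weeks. It had 222, 140.2 and 83.4 CPM in synuclein at 7 weeks and 167, 158 and 115 CPM in saline at 7 weeks. The groups overlapped, and Ywhag was the most variable member, with an SD within groups of 0.54 on the log2 CPM scale, against 0.22 to 0.31 for the other members. Its log2 fold of 12 against 7 weeks was −0.59 ± 0.25 over both treatments (−0.38 without replicate 1 of synuclein at 7 weeks), −0.72 ± 0.36 in saline and −0.47 ± 0.35 in synuclein. The synuclein value was −0.04 without replicate 1 and −0.72 without replicate 3 at 7 weeks, −0.31 without replicate 1 at 12 weeks and −0.73 without both libraries that stand apart. The saline value was −0.42 without replicate 3 at 12 weeks.

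Ywhaz had 428, 448 and 545 CPM in synuclein at 12 weeks and 439, 402 and 407 CPM in saline at 12 weeks. At 7 weeks it had 673, 483 and 477 CPM in synuclein and 548, 579 and 788 CPM in saline. In saline the times did not overlap, with 12 weeks lower, as for 7.83% of all genes, and the log2 fold was −0.62 ± 0.23. In synuclein they overlapped, with −0.20 ± 0.23, and single libraries set this value: it was 0.0032 without replicate 1 of synuclein at 7 weeks. Without replicates 1, 2 and 3 of synuclein at 12 weeks in turn it was −0.07, −0.12 and −0.32, and without replicates 1 and 2 together it was 0.0063. Over both treatments the Ywhaz log2 fold was −0.41 ± 0.16.

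Ywhab had 356, 494 and 539.5 CPM in synuclein at 12 weeks and 414, 415 and 516 CPM in saline at 12 weeks. At 7 weeks it had 617, 703 and 455 CPM in synuclein and 444, 716 and 663 CPM in saline. The times overlapped in both treatments, and the log2 fold over both was −0.40 ± 0.18. It was −0.35 ± 0.25 in synuclein, where the value was −0.13 without both libraries that stand apart or without replicate 1 of them alone and −0.18 without replicate 2 at 7 weeks, and −0.44 ± 0.25 in saline.

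Ywhaq lay the other way, and Ywhae took opposite signs in the 2 treatments. Ywhaq had 1731, 1283 and 1229.8 CPM in synuclein at 12 weeks and 1806, 1065 and 1515 CPM in saline at 12 weeks. It had 1101, 1047 and 1061 CPM in synuclein at 7 weeks and 1263, 1142 and 1194 CPM in saline at 7 weeks. All 3 synuclein libraries at 12 weeks lay above the 3 at 7 weeks, as did 5.13% of all genes, while in saline replicate 2 at 12 weeks was below all 3 at 7 weeks. The Ywhaq log2 fold of 12 against 7 weeks was 0.34 ± 0.16 over both treatments, 0.40 ± 0.23 in synuclein (0.21 without both libraries that stand apart) and 0.29 ± 0.23 in saline, where it ranged from 0.14 without replicate 1 to 0.46 without replicate 2 of the 12-week libraries. Ywhae had 408, 372 and 330.1 CPM in synuclein at 12 weeks, 371, 281 and 339 CPM in saline at 12 weeks, 370.2, 312 and 241 CPM in synuclein at 7 weeks and 456, 351 and 404 CPM in saline at 7 weeks. The times overlapped in both treatments. The Ywhae log2 fold was 0.27 ± 0.22 in synuclein and −0.29 ± 0.22 in saline, which average to −0.01 ± 0.16 over both treatments. The synuclein value was 0.11 without both libraries that stand apart, 0.15 without replicate 3 and 0.44 without replicate 1 of synuclein at 7 weeks. Over both treatments it ranged from −0.10 to 0.07 across the alternatives.

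Taking all 12 libraries as 6 against 6, every member overlapped between the times, where 0.944% of all genes did not. The median log2 fold of the 6 members was −0.40, against −0.03 over all genes tested. Of the members, 5 of 6 were below 0 (4 of 6 under the scalings that put Ywhae just above 0), against 53.0% of all genes. Ywhah, noted for this contrast, is 1 of the 6, so these values are a description only.

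The make-up of the 14-3-3 pool differed between the times more than its total did. The summed FPKM of the 7 family genes averaged 1482 ± 171 at 12 weeks and 1605 ± 190.2 at 7 weeks (SD, n = 6 each). Ywhah made up 14.6%, 18.2% and 18.7% of this sum in synuclein libraries at 12 weeks and 11.5%, 14.5% and 12.1% in saline libraries at 12 weeks. At 7 weeks its share was 28.3%, 24.3% and 20.3% in synuclein libraries and 23.6%, 25.0% and 25.4% in saline libraries. No 12-week library reached the lowest 7-week share. Ywhaq made up 42.5% to 56.2% of the summed FPKM at 12 weeks and 31.8% to 42.4% at 7 weeks. The ratio of Ywhah to Ywhaq FPKM was 0.205 to 0.439 at 12 weeks and 0.478 to 0.890 at 7 weeks. The shares of the other members overlapped between the times: Ywhae 11.6% to 12.98% at 12 weeks and 9.78% to 14.2% at 7 weeks, Ywhaz 8.40% to 11.7% and 10.01% to 13.8%, Ywhab 8.24% to 13.8% and 10.1% to 17.4%, and Ywhag 1.01% to 2.68% and 1.82% to 3.59%, each at 12 weeks and then at 7 weeks. These shares and ratios follow from the levels that chose Ywhah and are a description. Nothing is read from their not overlapping between the times.

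**Figure D2:**
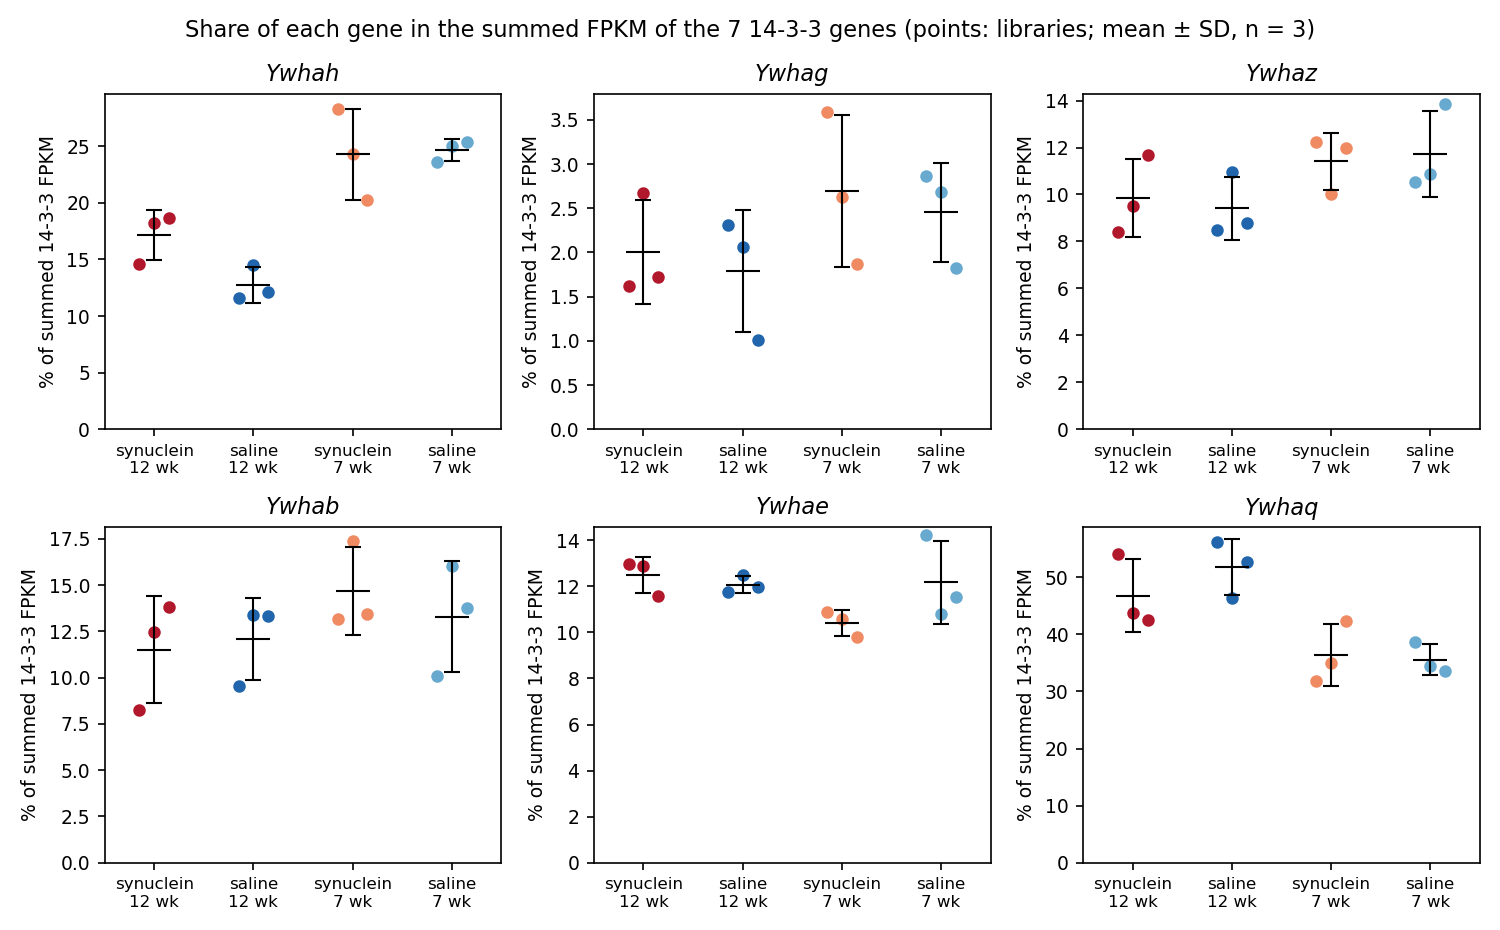
Share of each member in the summed FPKM of the 7 family genes, in percent (vertical axis from 0, a scale for each gene), in each library (points) with group mean and SD (n = 3). Ywhah shares lie between 11.5% and 18.7% at 12 weeks and between 20.3% and 28.3% at 7 weeks, and Ywhaq shares lie higher at 12 weeks, with 1 pair of libraries nearly touching at 42.5% and 42.4%.

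Marker RNA of the sorted cells also differed between the times. The neuronal sum was 676 to 1084 CPM at 12 weeks and 1189 to 3367 CPM at 7 weeks, and all 14 neuronal markers had a log2 fold below 0 (median −1.02). Of these, 2 were lower at an edgeR adjusted p under 0.05, where 0.293% of all genes were called lower. The sum of 12 dopaminergic markers was 637 to 1219 CPM at 12 weeks and 780 to 2686 CPM at 7 weeks, with 2 called lower. All 10 oligodendrocyte markers were above 0 (median 0.88) and 5 were called higher, where 0.541% of all genes were called higher. Without both libraries that stand apart no gene was called, so all these marker calls ended. Ependymal markers lay above 0 for 7 of 7 (median 2.61). Their sums were 16.2 to 496 CPM at 12 weeks and 7.73 to 45.1 CPM at 7 weeks. The highest were 496 CPM in replicate 1 of synuclein at 12 weeks, which stands apart, and 255 CPM in replicate 2 of saline at 12 weeks. The remaining 12-week libraries had 16.2 to 57.4 CPM, which overlaps the 7-week range. Microglial markers lay below 0 for 11 of 11 (median −0.80 on the log2 scale) and endothelial markers for 8 of 8 (median −0.29), and none of these 3 sets had a call. The last 2 sets leaned differently in saline and in synuclein, but none of their markers was called when the time folds of the treatments were compared. Microglial markers lay below 0 for 5 of 11 in saline (median 0.11) and for 11 of 11 in synuclein (median −1.65). Synuclein microglial sums were 241, 139 and 607 CPM at 7 weeks, the highest in replicate 3. They were 77.6, 87.5 and 169 CPM at 12 weeks, the lower values in the libraries that stand apart. Endothelial markers lay below 0 for 8 of 8 in saline (median −0.60) and for 4 of 8 in synuclein (median 0.02).

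Per unit of neuronal marker RNA, Ywhah did not separate the times. The ratio of Ywhah to the neuronal sum in CPM was 0.284 to 0.487 at 12 weeks (median 0.412) and 0.238 to 0.465 at 7 weeks (median 0.357). The ratio to the dopaminergic sum was 0.249 to 0.587 at 12 weeks and 0.274 to 0.532 at 7 weeks. For Ywhaq, the 3 libraries with the highest CPM were also the 3 with the highest oligodendrocyte sums (38750 to 43740 CPM). The part of these marker differences in the member folds was not tested.

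**Figure D3:**
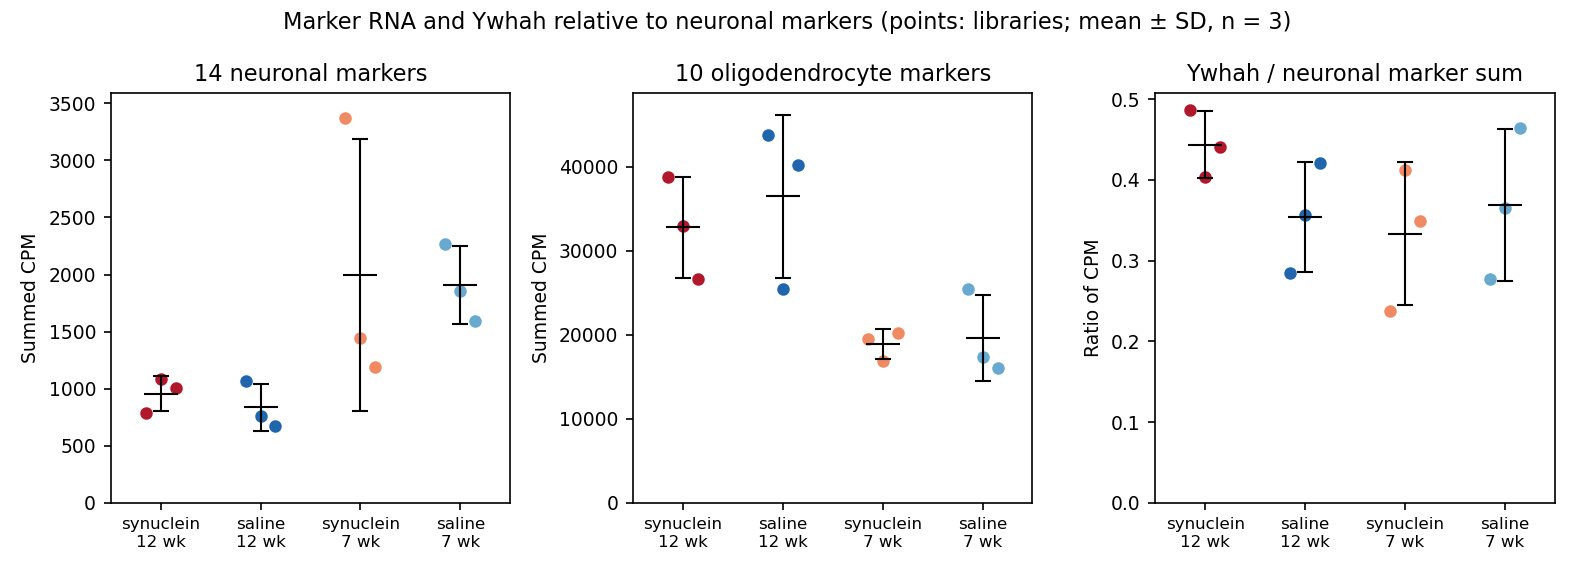
Summed CPM of 14 neuronal and 10 oligodendrocyte markers, and the ratio of Ywhah to the neuronal sum (vertical axes from 0), in each library (points) with group mean and SD (n = 3). Neuronal sums are lower and oligodendrocyte sums higher at 12 weeks, while the ratio overlaps, from 0.284 to 0.487 at 12 weeks and from 0.238 to 0.465 at 7 weeks.

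The genes whose library-to-library profile was most like that of Ywhah were named by the root mean square (RMS) difference of centred log2 CPM over the 12 libraries, among 8317 genes with a mean of at least 20 CPM. Pja2, a ubiquitin ligase that acts on protein kinase A subunits, was the closest at 0.20, where a flat profile would differ from Ywhah by 0.52. It averaged 115 CPM in synuclein and 90.3 CPM in saline at 12 weeks, and 146 CPM in synuclein and 166 CPM in saline at 7 weeks. Grb10, an imprinted adaptor of the insulin receptor, the cytosolic malate dehydrogenase Mdh1 and Ppp3r1, the regulatory subunit of calcineurin, followed with RMS differences of 0.23 to 0.24. Bcl2l1, which encodes the survival protein Bcl-xL, was sixth at 0.24. For these 5 genes the log2 fold of 12 against 7 weeks lay between −0.82 for Bcl2l1 and −0.60 for Mdh1. A lower level at 12 weeks follows from choosing genes by the Ywhah profile, so these folds are a description only. None of the 5 is among the 14 neuronal markers. The list rests on the same libraries and depth for every gene.

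Among its own family Ywhah was most like Ywhaz, which was 26th of the 8317 genes (RMS difference 0.30). Ywhab was 167th, Ywhag 197th, Ywhae 1250th and Ywhaq 5411th. The closest pairs of members were Ywhae with Ywhaq and Ywhab with Ywhaz, both at 0.25, and the most unlike pair was Ywhah with Ywhaq at 0.69. Ywhag and Ywhah, the closest in coding sequence, differed by 0.38.

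None of the 6 members was called between synuclein and saline. The treatment was not used in choosing them, so these differences were tested, with edgeR's quasi-likelihood test and Benjamini-Hochberg adjustment over 17380 genes. At 12 weeks the 3 synuclein libraries lay above the 3 saline libraries for Ywhah (values above), as they did for 4.01% of all genes. The Ywhah log2 fold was 0.55 ± 0.23, with an unadjusted p of 0.0297 and an adjusted p of 0.887 from edgeR. The fold ranged from 0.47 to 0.67 and the adjusted p from 0.42 to 1 over the alternatives, and without both libraries that stand apart the fold was 0.63. The other members had log2 folds of 0.26 ± 0.36 for Ywhag, 0.19 ± 0.23 for Ywhaz, 0.16 ± 0.22 for Ywhae, 0.05 ± 0.25 for Ywhab and −0.05 ± 0.23 for Ywhaq, and their groups overlapped. Without both libraries that stand apart these were 0.0055 for Ywhag, 0.40 for Ywhaz, 0.01 for Ywhae, 0.28 for Ywhab and −0.24 for Ywhaq. At 12 weeks 0% of all genes were called (5.57%, 968 genes, at an unadjusted p under 0.05; 12 genes by DESeq2 and 0 by limma-voom).

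Marker sums overlapped between synuclein and saline in the same comparison, though most markers of some sets leaned to the same side. At 12 weeks the 3 synuclein libraries had neuronal sums of 785 to 1084 CPM and the saline libraries of 676 to 1067 CPM, with 10 of 14 neuronal markers above 0 (median log2 fold 0.28). All 8 endothelial markers were above 0 (median 0.32), with sums of 7458 to 11800 CPM in synuclein and 6652 to 8813 CPM in saline. Microglial markers lay below 0 for 8 of 11 (median −0.88), with sums of 77.6 to 169 CPM in synuclein and 108 to 216 CPM in saline. The libraries that stand apart had microglial sums of 77.6 and 87.5 CPM, while replicate 3 of synuclein, at 169 CPM, lay within the saline range. Oligodendrocyte markers lay below 0 for 8 of 10 (median −0.24). None of these markers was called. The ratio of Ywhah to the neuronal sum overlapped, at 0.403 to 0.487 in synuclein and 0.284 to 0.421 in saline. The part of the markers in the Ywhah difference was not tested.

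At 7 weeks 5 of the 6 members lay below 0, with Ywhab just above 0 under upper-quartile scaling. Ywhah had a log2 fold of −0.18 ± 0.23 of synuclein against saline, and its sign rests on replicate 3 of synuclein, without which it was 0.02. Ywhae had the lowest fold, −0.39 ± 0.22 (unadjusted p = 0.0972, adjusted p = 1, edgeR). Ywhaq was −0.17 ± 0.23, with all 3 synuclein libraries below all 3 saline libraries, as for 3.75% of all genes. Ywhaz was −0.23 ± 0.22 (−0.04 without replicate 3 of saline), Ywhab −0.04 ± 0.25 and Ywhag 0.02 ± 0.35. All adjusted p values were 1 in edgeR, and 0% of all genes were called (1.64%, 285 genes, at an unadjusted p under 0.05, and 0 genes by DESeq2 and by limma-voom). All 8 endothelial markers were below 0 in synuclein at 7 weeks (median −0.27) and 10 of 11 microglial markers above 0 (median 1.13), none called. The microglial sums were 241, 139 and 607 CPM in synuclein, the highest in replicate 3, and 135, 105 and 240.2 CPM in saline.

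The synuclein fold at 12 weeks minus that at 7 weeks was above 0 for all 6 members, with a median log2 value of 0.33 against −0.05 over all genes, although Ywhab and Ywhaq fell below 0 under upper-quartile scaling. It was 0.73 ± 0.33 for Ywhah (unadjusted p = 0.0401, adjusted p = 0.952, edgeR) and 0.56 ± 0.32 for Ywhae (unadjusted p = 0.0961, adjusted p = 0.952, edgeR). It was 0.42 ± 0.32 for Ywhaz, 0.25 ± 0.50 for Ywhag, 0.12 ± 0.32 for Ywhaq and 0.09 ± 0.35 for Ywhab. A difference of the Ywhah response between the times was not detectable with these libraries. In this comparison 0% of all genes were called (4.49%, 780 genes, at an unadjusted p under 0.05, and 0 genes by DESeq2 and by limma-voom). Over both times, the treatment folds lay between −0.11 for Ywhae and 0.19 ± 0.17 for Ywhah, none was called, and 0% of all genes were (2.48%, 431 genes, at an unadjusted p under 0.05; 3 genes by DESeq2).

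**Figure D4:**
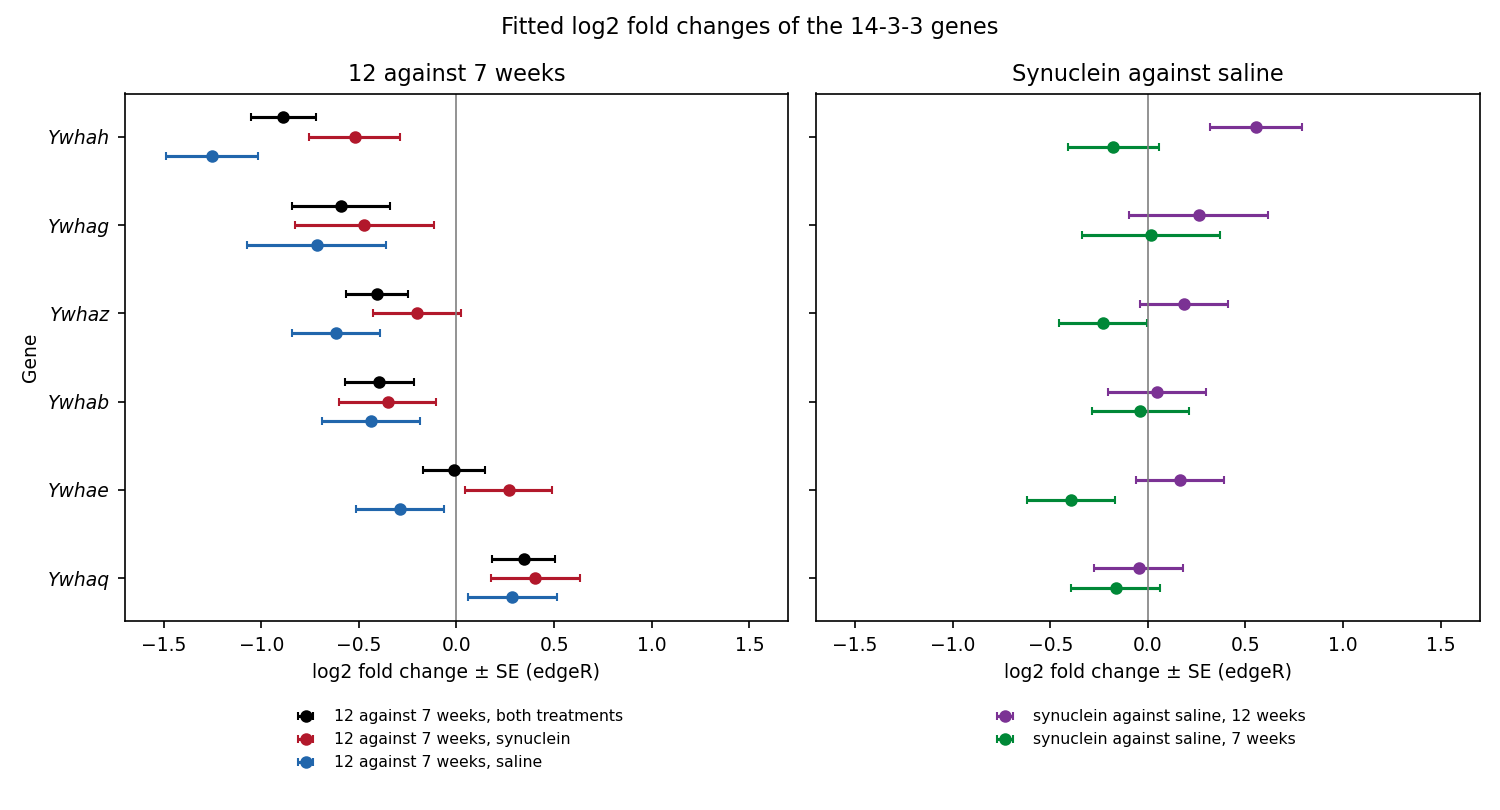
Fitted log2 fold changes (horizontal axis) with SE for each member, of 12 against 7 weeks (left, over both treatments and in each) and of synuclein against saline at each time (right). Ywhah has the lowest time fold, −1.25 in saline, and the highest treatment fold, 0.55 at 12 weeks, while Ywhaq lies above 0 with time and below 0 with treatment.

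Among genes for partners of 14-3-3 proteins, 1 was called with time and none with treatment. Of 93 listed genes in 9 lists (clients, kinases that make the binding sites, and phosphatases that remove them), 92 were tested and Foxo3 had too few counts. None was called between synuclein and saline at 12 weeks, at 7 weeks or over both times in edgeR, DESeq2 or limma-voom. The same held for the difference between the times. In these 4 comparisons, in that order, 9, 2, 4 and 6 of the 92 partners had an unadjusted p under 0.05 in edgeR. The shares of all genes were 5.57%, 1.64%, 2.48% and 4.49%. Between the times 1 was called lower and 0 higher, against 0.293% and 0.541% of all genes (0.834% or 145 genes in all). The median partner log2 fold of 12 against 7 weeks was −0.09, against −0.03 over all genes.

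The partner called was Th, tyrosine hydroxylase, the rate-limiting enzyme of dopamine synthesis and the client that gave the family its gene symbols. Th had 169, 256 and 173 CPM in synuclein and 334, 217 and 160.5 CPM in saline at 12 weeks, against 858, 502 and 233 CPM in synuclein and 711, 518 and 362 CPM in saline at 7 weeks. The saline times lay apart, with 12 weeks lower, as for 7.83% of all genes, and the synuclein times overlapped in 1 pair of libraries. Its log2 fold of 12 against 7 weeks was −1.29 ± 0.27 (edgeR adjusted p = 0.0376), and it was called in 10 of 23 alternatives, with adjusted p from 0.000649 to 0.35. Th is itself 1 of the 12 dopaminergic markers. Of the 3 amine synthesis enzymes, the other two were not called.

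No client list had another call. Among proteins of inherited parkinsonism reported to bind 14-3-3, 4 of 6 lay above 0 with time, with a median of 0.14. Park7, the redox-sensitive protein DJ-1, had log2 folds of 0.11 ± 0.15 with time and 0.16 ± 0.22 with synuclein at 12 weeks. Pink1, a kinase of damaged mitochondria, had 0.16 ± 0.16 and 0.29 ± 0.23 in the same comparisons. At 12 weeks Pink1 had 268.5, 482 and 343 CPM in synuclein, the highest in replicate 2, which stands apart, and 274 to 313 CPM in saline. Among 6 apoptosis and stress clients, Bad, a cell-death protein that 14-3-3 holds in the cytosol, had 0.53 ± 0.31 with synuclein at 12 weeks (adjusted p = 0.902, edgeR) and −0.09 ± 0.22 with time. Bax, its pore-forming relative, had 0.18 ± 0.28 and −0.11 ± 0.19. At 12 weeks Bad had 40.3, 90.8 and 76.8 CPM in synuclein, again highest in replicate 2, and 43.6 to 51.9 CPM in saline.

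The 14 transcription and chromatin clients tested had a median log2 fold of 0.07 with time, with Wwtr1 (the Hippo pathway factor TAZ) at −0.10 ± 0.24 and the histone deacetylase Hdac7 at 0.04 ± 0.17. The 16 growth signalling clients had a median of −0.02, with the RAF kinase Araf at −0.19 ± 0.21 and the G protein regulator Rgs3 at 0.08 ± 0.17. The 5 cell cycle clients had a median of 0.07, with the phosphatase Cdc25b at 0.14 ± 0.32 and the cyclin-dependent kinase inhibitor Cdkn1b at 0.05 ± 0.34. Among 11 channel, trafficking and cytoskeleton clients (median −0.04), the kinesin Kif5b had −0.14 ± 0.17 with time. With synuclein at 12 weeks Kif5b had 0.51 ± 0.24 (adjusted p = 0.887, edgeR), near the value of Ywhah. Its libraries had 338.5, 528.5 and 396 CPM in synuclein, the highest in replicate 2, which stands apart, and 267 to 311 CPM in saline.

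Of 24 kinases that make 14-3-3 sites, 16 lay below 0 with time (median −0.15) and none was called. Sgk1, a stress-induced kinase related to AKT, had −1.09 ± 0.36 (adjusted p = 0.226, edgeR), and Camk1, a calcium-dependent kinase, −0.16 ± 0.20. Of 7 phosphatase genes, 6 lay below 0 with time (median −0.19), and none was called. The catalytic subunits Ppp1ca and Ppp2ca had −0.15 ± 0.16 and 0.03 ± 0.16. With synuclein at 7 weeks all 7 lay below 0 (median −0.12), and at 12 weeks 6 of 7 lay above 0 (median 0.07), again with none called.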

How the data were processed

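RNA of hKO1-positive midbrain cells was purified and amplified with the SMARTer Ultra-Low kit, per the labels' protocols. The submitters' processing notes name TopHat2 2.0.13, Bowtie2 2.2.3 and Cufflinks 2.2.1. The authors deposited estimated counts and FPKM for 24346 genes and 12 libraries, with 1 value of each per library. The estimated counts were scaled per library before they were deposited: 98.8% to 98.9% of values were whole multiples, within 0.02 fragments, of a step between 0.685 and 1.30, and dividing by it gave the assigned fragments. Another 60 numeric columns (such as uncertainty bounds) were not used. A genome build was not given in the sources used here. In RefSeq GRCm38.p6, 95.1% of the gene names were found, 68.0% of them with start and end within 1000 bases.

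The counts were rounded and fitted in edgeR 4.0.16 (R 4.3.3) with filterByExpr, TMM scaling and 1 mean per group over all libraries (17380 genes, 8 residual degrees of freedom, common biological coefficient of variation 46.6%). SE is the size of the log2 fold divided by the square root of F. Called means an adjusted p under 0.05. No 2 libraries held identical values. Whether replicates came from separate animals is not in the labels, and p-values cover only the spread between these samples. The fit was tested on simulated data.

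The members, the 9 partner lists and the 10 marker lists were chosen with earlier results of these data known. All 93 partners matched the tables, and the marker Hbb-bt did not. Named were the members and Sfn, from each partner list up to 3 genes called with time or else the pair with the highest mean FPKM, and the 6 genes most like Ywhah. Some genes that this rule names are not reported here. Alternatives were other scalings, filters, DESeq2 1.42.0, limma 3.58.1, pseudocounts of 1 and 0.1 on FPKM, a replicate block and libraries left out.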

Additional observations from a re-analysis of the deposited data

How the results depend on the processing

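No member was called between synuclein and saline under any of the alternatives (94 counts), and of 564 tested member folds 519 kept their sign. The other 45 changed sign. With upper-quartile scaling, Ywhab was 0.012 at 7 weeks, −0.038 at 12 weeks and −0.013 over both times, and the differences of the effect were −0.050 for Ywhab and −0.0081 for Ywhaq; that scaling moved the median of all genes in this difference by −0.133. Ywhag at 7 weeks was −0.078 with limma-voom, −0.072 and −0.076 on log2(FPKM + 1) and log2(FPKM + 0.1). Ywhaq at 12 weeks was 0.0074 on both FPKM scales. Without both libraries that stand apart, where the remaining synuclein library at 12 weeks is assumed to vary like the other groups, Ywhaz over both times was 0.082, and the differences of the effect were −0.0085 for Ywhag and −0.069 for Ywhaq. With single libraries left out, the folds ranged at 7 weeks from −0.22 to 0.11 for Ywhab, −0.39 to 0.29 for Ywhag and −0.43 to 0.023 for Ywhah. At 12 weeks they ranged from −0.076 to 0.26 for Ywhab and −0.19 to 0.14 for Ywhaq, and over both times from −0.070 to 0.10 for Ywhab, −0.044 to 0.34 for Ywhag and −0.093 to 0.082 for Ywhaz. The difference of the effect ranged from −0.034 to 0.31 for Ywhab, −0.012 to 0.69 for Ywhag and −0.011 to 0.29 for Ywhaq. For these changes the cause was not tested.

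Counts over all genes moved more. Between 12 and 7 weeks edgeR called 145 genes, DESeq2 468, limma 0 on log2(FPKM + 1) and 1 on log2(FPKM + 0.1), and edgeR 0 without both libraries that stand apart. Leaving out single libraries gave 24 to 214: 24 and 32 without replicates 3 and 2 of saline at 7 weeks, 28 and 38 without replicates 1 and 2 of synuclein at 7 weeks, 27 and 29 without replicates 1 and 3 of saline at 12 weeks, and 38 without replicate 1 of synuclein at 12 weeks. Synuclein against saline gave 12 genes with DESeq2 and 2 on log2(FPKM + 0.1) at 12 weeks, 3 and 1 over both times, and the difference of the effect 1 on log2(FPKM + 1), with 0 to 1 at 7 weeks, at 12 weeks and over both times with a library left out. Partners called higher with time numbered 2 with DESeq2 and 0 to 2 with a library left out; partners called lower numbered 0 on both FPKM scales and without both libraries that stand apart, and 0 to 2 with a library left out.

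Replicate numbers shared by the groups did not pair the libraries: correlations of their deviations lay between −0.06 and 0.073, and 5 of 12 libraries were most like one with their own number. With the replicate block the time comparison called 246 genes, against 145 without it, and 1 partner higher. Ywhag at 7 weeks was −0.061 with the block, and no member was called between synuclein and saline. With 3 libraries per group, the SE of 0.22 to 0.36 on member folds limits what could be detected.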
